A study of Homo sapiens with 6 samples.

Results

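The genes described here code for tetraspanins, for the related L6 proteins and for membrane partners of tetraspanins, measured by RNA-seq in PANC-1 cells, a human pancreatic cancer cell line, after silencing of the palmitoyltransferase ZDHHC20. They were taken by name from a list of 35 genes, made with earlier results of these data known. Of these genes, 33 had a row among the 27394 genes of the deposited table. TM4SF4 and TSPAN2 had no row, and TM4SF5 and TSPAN7 stayed under a mean of 1 normalized count over the 6 libraries. The remaining 31 genes are the members, among 22189 genes in all that reached this mean and were tested. The listed genes fell into 5 TspanC8 tetraspanins, 7 tetraspanins with CD names, 2 uroplakin tetraspanins, 13 other TSPAN genes, 5 L6 genes, 2 EWI partners and the metalloprotease gene ADAM10.

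The series held 6 libraries, all from PANC-1 cells. In 3 libraries the cells carried a control shRNA (shControl) and in 3 an shRNA directed at ZDHHC20 (shZDHHC20), and the comparison asked which transcripts differ when ZDHHC20 is silenced. The study's methods list 2 shRNAs against ZDHHC20 and do not say which one was sequenced, so effects of the shRNA itself and of ZDHHC20 loss cannot be told apart. The labels do not say whether replicates came from separate cultures, and the p-values then measure only the spread between these libraries. In whole-culture RNA, fewer cells with a transcript and less of it per cell cannot be told apart.

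Tetraspanins are small proteins that pass the plasma membrane several times and gather integrins, immunoglobulin-like proteins and proteases into patches of the membrane called tetraspanin-enriched microdomains. Palmitoyltransferases of the DHHC family attach palmitate to cysteines of tetraspanins next to the membrane, and this lipid helps to hold the patches together. L6 proteins have a similar layout but belong to a separate family, with TM4SF1 known as an antigen of many carcinomas. RNA-seq measures transcripts and holds no information on the palmitate or on the amount of these proteins.

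ZDHHC20 itself (ENSG00000180776) read 2001, 2033 and 1940 normalized counts in replicates 1, 2 and 3 of shControl. In shZDHHC20 it read 872, 779 and 893 in the same order. The silenced libraries thus kept 42.6% of the control level, and the groups did not overlap (log2 fold change -1.23, SE, the standard error, 0.0649, limma adjusted p = 4.36e-07). An exact permutation of the libraries could not give a two-sided p below 0.1 with 3 against 3. ZDHHC2, a palmitoyltransferase known to act on tetraspanins, read 423, 480 and 445 in shControl and 355, 307 and 332 in shZDHHC20. It was also lower (log2 fold change -0.44, SE 0.0895, limma adjusted p = 0.00629, and up to 0.0968 among the alternatives), again with no overlap.

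A normalized count here is a gene's read count divided by 1 factor per library, and it is not divided by gene length. The values summed to between 16575546 and 18441049 steps of the smallest value per library, so depth was similar. The epithelial keratins KRT8, KRT18 and KRT19 were at or above 5771 in every library, while the ductal keratin KRT7 lay between 63.6 and 122 and KRT17 at or under 4.81. Acinar markers summed to at most 11.3 and endocrine markers to at most 6.36 normalized counts per library, and endothelial and fibroblast markers to at most 55.6 and 99.6. shZDHHC20 replicate 2 stood apart from the other libraries. Over 4136 genes with a mean of at least 1000, its log2 values differed from the other shZDHHC20 replicates with an SD of 0.178 and 0.198, against 0.0722 between replicates 1 and 3 and 0.0674 to 0.0718 within shControl. Its share of mitochondrial transcripts was 4.01%, against 5.28% to 5.52% in the others. Results that rest on it are therefore given with and without it.

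Sequences of 4 promoters are shown, of both members that rose and of CD82 and TSPAN5, which are CpG-rich examples among those that fell. They were picked after the values were seen, from the RefSeq table of GRCh38.p14, in which 28 of the listed genes had an entry. Each run is the 250 bases before the annotated start, 5′ to 3′ on the gene's own strand, with CpG dinucleotides in capitals. The window of TM4SF1 lies at chr3:149377650-149377899 on the minus strand, that of TSPAN1 at chr1:46174837-46175086 on the plus strand, that of CD82 at chr11:44565413-44565662 on the plus strand and that of TSPAN5 at chr4:98658612-98658861 on the minus strand.
TM4SF1: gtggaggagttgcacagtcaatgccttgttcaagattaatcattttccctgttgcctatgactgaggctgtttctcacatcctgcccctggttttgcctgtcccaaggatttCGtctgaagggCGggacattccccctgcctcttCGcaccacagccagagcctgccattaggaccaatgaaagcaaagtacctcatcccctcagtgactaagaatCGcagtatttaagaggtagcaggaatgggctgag
TSPAN1: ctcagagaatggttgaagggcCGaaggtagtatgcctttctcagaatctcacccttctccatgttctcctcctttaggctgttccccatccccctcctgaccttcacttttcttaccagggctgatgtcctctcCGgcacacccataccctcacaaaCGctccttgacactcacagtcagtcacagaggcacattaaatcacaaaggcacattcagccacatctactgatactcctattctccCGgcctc
CD82: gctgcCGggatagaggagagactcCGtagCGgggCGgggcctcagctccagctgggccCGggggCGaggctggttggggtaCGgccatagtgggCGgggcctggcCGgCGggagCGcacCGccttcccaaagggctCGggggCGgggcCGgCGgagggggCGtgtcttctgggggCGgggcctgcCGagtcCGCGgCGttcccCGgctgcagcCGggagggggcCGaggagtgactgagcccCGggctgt
TSPAN5: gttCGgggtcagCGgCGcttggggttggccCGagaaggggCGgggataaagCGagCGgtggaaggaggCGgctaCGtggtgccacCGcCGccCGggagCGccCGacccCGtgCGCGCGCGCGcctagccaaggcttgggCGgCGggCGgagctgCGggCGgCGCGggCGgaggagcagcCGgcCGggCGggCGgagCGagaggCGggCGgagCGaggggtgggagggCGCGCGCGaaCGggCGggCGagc

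TM4SF1 and TSPAN1, both higher after silencing, held 4 CpG dinucleotides each in this window. CD82 and TSPAN5, both lower, held 26 and 43. Over all 35116 windows of the table the median was 11, with 38.1% of windows at 5 or fewer and 28.0% at 22 or more. The split did not run through all members, since the uncalled TM4SF18 and UPK1A held 2 and 4, and TSPAN6, which was lower, held 3 and 7 in its 2 windows. TSPAN4 and CD9, also lower, had several annotated starts with 5 to 43 and 1 to 29 CpG dinucleotides, and TSPAN9, TSPAN3 and CD81 had no entry. The E-box CACGTG, whose reverse complement is the same letters, was searched because the study centres on MYC, a factor that can bind it. It stood in 4 of the 48 windows of the listed genes, 1 each of TSPAN4, CD63, ADAM10 and TSPAN6, and in 6.34% of all windows of the same length. These are descriptions of letters in a window, with no test.

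After ZDHHC20 silencing, 10 of the 31 members passed an adjusted p of 0.05 in limma. TM4SF1 and TSPAN1 rose, and TSPAN9, CD82, TSPAN4, TSPAN6, TSPAN5, TSPAN3, CD9 and CD81 fell. Since the members were chosen with earlier results of these data known, the shares that follow are descriptions and not a test. The called members made up 32.3% of the 31, beside 11.5% of all genes tested. In the lower direction they were 25.8%, beside 6.84% of all genes, and in the higher direction 6.45%, beside 4.61%. The calls all lay among the 20 members with a mean of at least 100, of which 50.0% were called, beside 21.7% of all genes of that level. Among the 11 members under a mean of 100, limma called 0 after adjustment, and 3 had an unadjusted p under 0.05. Few calls fell at that level over all genes either, since 2364 of all 2541 calls had a mean of at least 100. The share of all genes at that unadjusted p was not counted. The libraries of the 2 groups did not overlap for 16 of 31 members (51.6%), beside 28.6% of all genes. The median log2 fold change was -0.17 over the members and 0.01 over all genes tested. The shares by direction, by overlap and without shZDHHC20 replicate 2 were not matched for expression level. Without shZDHHC20 replicate 2, 16 members were called, 4 higher and 12 lower, which is 51.6% beside 20.0% of all genes. All 10 calls were among these 16, with log2 fold changes of 0.62 for TM4SF1, 0.72 for TSPAN1, -0.84 for CD82, -0.32 for TSPAN6, -0.30 for TSPAN5, -0.24 for TSPAN3, -0.20 for CD81 and -0.19 for CD9. In a fit without the trend of variance with expression level, TM4SF1 alone was called.

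**Figure D1:**
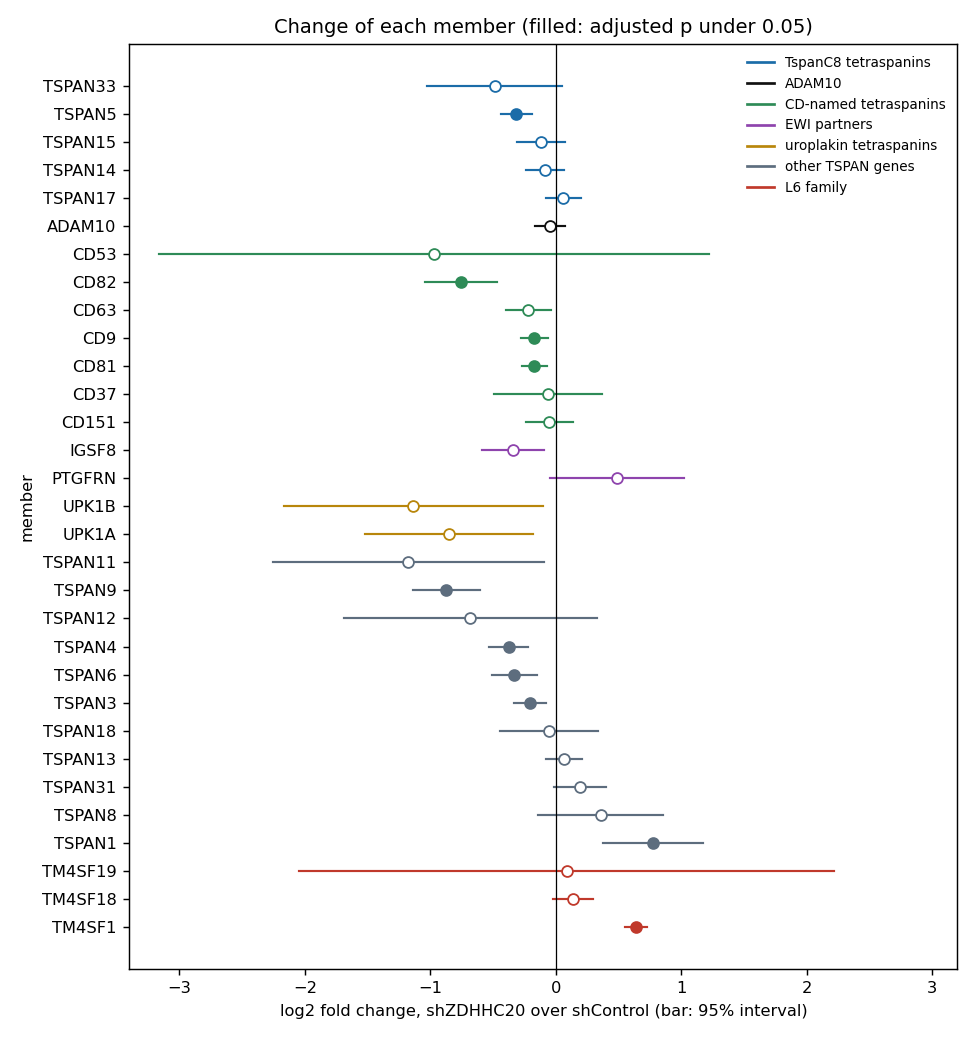
Log2 fold change of the 31 members, shZDHHC20 over shControl, on the log2(normalized count + 0.1) scale, with 95% intervals from limma, 3 libraries per group, coloured by role and filled where the adjusted p was under 0.05. The 10 filled points are 8 lower and 2 higher members, and the widest bars, of CD53 and TM4SF19, belong to members near 2 to 5 normalized counts.

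The TspanC8 subgroup of tetraspanins escorts the protease ADAM10 out of the endoplasmic reticulum and steers its substrate choice. Of its 5 members here, TSPAN5 (ENSG00000168785, chromosome 4) fell and the other 4 did not pass. TSPAN10, also a TspanC8 tetraspanin, was outside the listed genes and did not pass either (log2 fold change 0.56, adjusted p = 0.185, limma). TSPAN5 read 1324, 1360 and 1378 normalized counts in shControl and 1086, 1060 and 1119 in shZDHHC20. All silenced libraries lay below all control libraries, at 78.3% to 82.7% of the control mean. The means were 1354 ± 27.5 and 1089 ± 29.5 (SD, n = 3 each), with a log2 fold change of -0.31 (SE 0.0574, limma adjusted p = 0.00312). The call held in each set that left out 1 library and under both added scalings, but not in the fit without the variance trend. No exon of another gene overlaps TSPAN5 in the annotation.

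TSPAN15, the TspanC8 member known to direct ADAM10 to N-cadherin, read 3260, 3110 and 3124 in shControl and 2656, 3524 and 2659 in shZDHHC20. Replicates 1 and 3 lay below the controls and replicate 2 above them. With all libraries the log2 fold change was -0.12 (SE 0.0885, adjusted p = 0.474), and without replicate 2 it was -0.25 (SE 0.0357, adjusted p = 0.000165, both limma). TSPAN33 was at 72.8, 67.3 and 69.1 in shControl and at 61.5, 31.9 and 62.6 in shZDHHC20. Its groups did not overlap, and replicate 2 lay at 45.8% of the control mean against 88.2% and 89.7% in the others. TSPAN33 did not pass with all libraries (log2 fold change -0.49, adjusted p = 0.261) or without replicate 2 (-0.17, adjusted p = 0.602, both limma). TSPAN14 and TSPAN17 overlapped between groups, with log2 fold changes of -0.08 and 0.06 and adjusted p-values of 0.52 and 0.635 (limma).

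ADAM10 (ENSG00000137845, chromosome 15), the protease these members escort, read 3635, 3643 and 3621 in shControl and 3718, 3254 and 3611 in shZDHHC20. The silenced libraries lay on both sides of the narrow control range. Its log2 fold change of -0.04 had an SE of 0.0551 and a 95% interval from -0.16 to 0.07 (adjusted p = 0.683, limma). Without replicate 2 it was 0.01 (adjusted p = 0.847, limma).

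Of the 7 tetraspanins with CD names, 3, namely CD82, CD9 and CD81, passed the test, all lower, beside 6.84% of all genes called lower. These 3 had a mean of at least 100, a level at which 21.7% of all genes were called in either direction. All 7 had a negative log2 fold change with all libraries, beside 10722 of 22189 genes, but those of CD151 and CD37 turned positive when certain single libraries were left out. CD82 (ENSG00000085117, chromosome 11), known as the metastasis suppressor KAI1, had the largest change of these 3 called genes. It read 173, 178 and 199 in shControl and 109, 122 and 95.3 in shZDHHC20. Each silenced library held 52.0% to 66.6% of the control mean, with no overlap. The means were 183 ± 14.1 and 109 ± 13.4 (SD, n = 3 each), with a log2 fold change of -0.76 (SE 0.134, limma adjusted p = 0.00262). Exons of the gene AC010768.1 overlap CD82 on the other strand, and since the strand setting of the counting is not stated, their reads may not have been kept apart. The same holds for CD81, CD63, CD151, CD37, ADAM10, TSPAN3, TSPAN11, TSPAN14, TSPAN18 and TM4SF18.

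CD9 (ENSG00000010278, chromosome 12), a tetraspanin of adhesion and cell fusion, read 2525, 2527 and 2462 in shControl and 2244, 2274 and 2158 in shZDHHC20. CD81 (ENSG00000110651, chromosome 11), a broadly expressed tetraspanin that binds EWI proteins, read 5055, 5034 and 4989 in shControl and 4386, 4621 and 4390 in shZDHHC20. Both genes were lower in every silenced library than in any control library, by about the same amount. CD9 kept 88.8% of the control level (log2 fold change -0.17, SE 0.0501, limma adjusted p = 0.0427). CD81 kept 88.9% (log2 fold change -0.17, SE 0.0452, limma adjusted p = 0.0264). These small differences passed the threshold narrowly. Leaving out any one library other than shZDHHC20 replicate 2 put the adjusted p of CD9 between 0.118 and 0.168 and that of CD81 between 0.077 and 0.129. With every library scaled to the same sum, it was 0.13 for CD9 and 0.0937 for CD81.

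CD63, which marks late endosomes and exosomes, and CD151, the partner of laminin-binding integrins, hinged on 1 library. CD63 read 4561, 4394 and 4612 in shControl and 3623, 4623 and 3493 in shZDHHC20. In replicates 1 and 3 it stood at 80.1% and 77.2% of the control mean, and in replicate 2 at 102%. With all libraries its log2 fold change was -0.22 (SE 0.0833, adjusted p = 0.118), and without replicate 2 it was -0.35 (SE 0.0336, adjusted p = 5.42e-06, both limma). CD151 read 8254, 8131 and 8199 in shControl and 7281, 9584 and 7079 in shZDHHC20. Replicate 2 was thus the highest of the 6 libraries and replicates 1 and 3 the lowest. The log2 fold change of CD151 was -0.05 with all libraries (adjusted p = 0.777) and -0.19 without replicate 2 (adjusted p = 9.71e-05, both limma). Its sign was positive under quantile normalization and without shZDHHC20 replicate 1 or 3. CD37 and CD53, which are tetraspanins of leukocytes, were low and overlapped between groups, CD37 from 49.5 to 74.1 and CD53 from 0.939 to 9.09 normalized counts over the 6 libraries (adjusted p = 0.897 and 0.62, limma). Leukocyte markers summed to 30.3 to 41.1 in shControl and 19.2 to 28.2 in shZDHHC20, most of it ITGAM, with PTPRC at or under 6.36 and CD3E, MS4A1 and LYZ without a row. Their part in the low levels of CD37 and CD53 was not tested.

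The EWI partners are immunoglobulin-like proteins that bind CD9 and CD81 directly. IGSF8 (ENSG00000162729, chromosome 1), also called EWI-2, read 602, 553 and 549 in shControl and 411, 557 and 395 in shZDHHC20. Replicates 1 and 3 of shZDHHC20 lay well below the controls and replicate 2 within their range. IGSF8 had a log2 fold change of -0.34 (SE 0.114, adjusted p = 0.078), and -0.49 without replicate 2 (SE 0.0728, adjusted p = 0.000225, both limma). PTGFRN, also called EWI-F, was lowly expressed, at 30.1 to 44.5 in shControl and 39.4 to 55.1 in shZDHHC20. Its groups overlapped, with a log2 fold change of 0.49 (95% interval -0.05 to 1.02, adjusted p = 0.255, limma), and 0.64 without replicate 2 (adjusted p = 0.107, limma). For the EWI pair limma thus called 0 members after adjustment, with 1 at an unadjusted p under 0.05, a share not counted over all genes.

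The uroplakin tetraspanins UPK1A and UPK1B, which build the plaques of the bladder lining, were at low levels. UPK1A (ENSG00000105668, chromosome 19) read 41.4, 35.2 and 27.0 in shControl and 23.3, 14.1 and 20.2 in shZDHHC20. UPK1B read 18.2, 11.0 and 14.0 in shControl and 6.36, 4.70 and 8.66 in shZDHHC20. For both genes every silenced library lay below every control library, beside 28.6% of all genes whose groups did not overlap in either direction. The log2 fold changes were -0.85 for UPK1A (SE 0.31, adjusted p = 0.104, limma) and -1.14 for UPK1B (SE 0.479, adjusted p = 0.165, limma). Without shZDHHC20 replicate 2, the lowest library for both, they were -0.65 and -0.92 (adjusted p = 0.179 and 0.243, limma). With all libraries, limma called 0 of these 2 genes after adjustment, while 2 of 2 had an unadjusted p under 0.05, a share not counted over all genes. Of the urothelial markers, UPK2 lay between 6.74 and 20.2 and KRT20 at or under 1.01, while UPK3A had no row. GATA3 was higher after silencing, at 261 to 291 in shControl and 315 to 362 in shZDHHC20 (log2 fold change 0.33, adjusted p = 0.0388, limma), and its part in the uroplakin levels was not tested. The antisense gene UPK1A-AS1 overlaps UPK1A in the annotation, and AC083800.1 overlaps UPK1B on the same strand.

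TM4SF1 (ENSG00000169908, chromosome 3), the L6 antigen, rose in every silenced library. It read 8648, 8837 and 8863 in shControl and 13196, 13972 and 13848 in shZDHHC20. The silenced libraries lay at 150% to 159% of the control mean, far outside the control range, and replicate 2 did not stand apart here. The means were 8783 ± 118 and 13672 ± 416 (SD, n = 3 each), with a log2 fold change of 0.64 (SE 0.0421, limma adjusted p = 1.76e-06). It was the only member called under every alternative, with an adjusted p of at most 0.0349, reached in the model without a mean-variance trend. The antisense gene TM4SF1-AS1 overlaps its exons on the other strand.

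TM4SF18 is the next protein-coding gene to TM4SF1 on chromosome 3, with TM4SF4 on the other side. It read 1124, 1226 and 1147 in shControl and 1297, 1158 and 1394 in shZDHHC20. Replicate 2 lay within the control range and the other silenced libraries above it. This gave a log2 fold change of 0.14 (SE 0.0731, adjusted p = 0.29), and 0.21 without replicate 2 (SE 0.0545, adjusted p = 0.0142, both limma). TM4SF19 stayed between 1.06 and 4.81 normalized counts, and TM4SF5 between 0 and 1.01, with all silenced libraries at 0. TM4SF19 also shares exon positions with a readthrough gene.

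Levels of different genes were compared per kb of exon, counting every annotated exon of a gene and not only those of the transcripts expressed here. These lengths, such as 3.67 kb for TM4SF1, 7.39 kb for CD81 and 17.9 kb for TSPAN14, bear on the order and on the sums below. On this scale TM4SF1 was the highest of the 31 members in shControl, at 2394 ± 32.1 normalized counts per kb (SD, n = 3). CD151 followed at 2081 ± 15.6, CD63 at 1718 ± 43.3, TSPAN15 at 1196 ± 31.2 and TSPAN13 at 1130 ± 54.6. The ranges of TSPAN15 and TSPAN13 met within their SDs, while TM4SF1, CD151 and CD63 were set apart by more than theirs. These SDs hold only the spread between libraries and nothing of the uncertainty in length, so they do not secure the order of genes. CD81 and CD9 came next, at 680 ± 4.57 and 601 ± 8.88. TM4SF1 made up 19.5% to 19.9% of the summed per-kb level of all members in shControl and 27.6% to 30.7% in shZDHHC20. The 25 tetraspanins together summed to 8995 to 9083 normalized counts per kb in the shControl libraries. In shZDHHC20 they summed to 8010 and 7844 in replicates 1 and 3, below the controls, and to 9294 in replicate 2, above them.

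**Figure D2:**
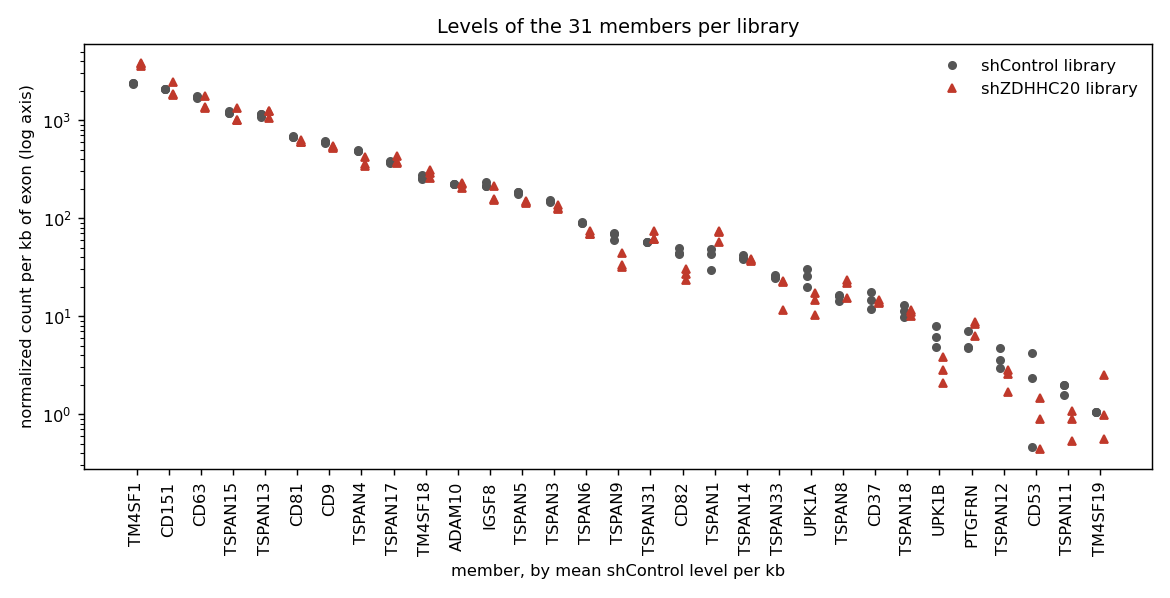
Normalized count per kb of exon, on a log axis, of the 31 members in the 3 shControl and 3 shZDHHC20 libraries, ordered by the shControl mean. TM4SF1 stands first, at 2394 in shControl and 3727 in shZDHHC20, and the members to the right of TSPAN14 lie under 31 normalized counts per kb.

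Of the other TSPAN genes, 5 of 11 passed, 1 higher and 4 lower, beside 11.5% of all genes. All 5 had a mean of at least 100, a level at which 21.7% of all genes were called. TSPAN1 (ENSG00000117472, chromosome 1), a tetraspanin of secretory epithelia that is often raised in carcinomas, was the second member to rise. It read 69.7, 114 and 101 in shControl and 174, 172 and 135 in shZDHHC20. No silenced library overlapped the controls, but both groups were wide, with means of 95.1 ± 23.0 and 160 ± 22.0 (SD, n = 3 each). On the log2 scale the change was 0.77 (SE 0.184, limma adjusted p = 0.0157). Without shControl replicate 1 the adjusted p was 0.0746 and without shZDHHC20 replicate 1 it was 0.0925. No exon of another gene overlaps TSPAN1.

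TSPAN9 (ENSG00000011105, chromosome 12), known from platelets, had the largest drop of the called members. It read 474, 414 and 485 in shControl and 219, 307 and 229 in shZDHHC20. Every silenced library was below every control library, with replicate 2 nearest to the controls. The means were 457 ± 38.2 and 252 ± 48.1 (SD, n = 3 each), with a log2 fold change of -0.87 (SE 0.124, limma adjusted p = 0.00051), and -1.03 without replicate 2. TSPAN4 (ENSG00000214063, chromosome 11), which helps to form migrasomes on the trailing fibres of moving cells, read 2877, 2802 and 2801 in shControl and 2098, 2486 and 1982 in shZDHHC20. Again replicate 2 was nearest to the controls without reaching them. The log2 fold change of TSPAN4 was -0.38 (SE 0.0723, adjusted p = 0.00445), and -0.47 without replicate 2 (adjusted p = 1.26e-06, both limma). In the annotation 1 protein-coding gene lies between TSPAN4 and CD151, which did not pass the test with all libraries.

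TSPAN6 (ENSG00000000003, X chromosome) read 402, 402 and 412 in shControl and 313, 316 and 339 in shZDHHC20. The silenced libraries lay at 77.1% to 83.5% of the control mean, and replicate 2 was in the middle of the 3. TSPAN6 thus changed by -0.33 on the log2 scale (SE 0.0823, limma adjusted p = 0.0196). Leaving out any one shControl library, or shZDHHC20 replicate 1, put the adjusted p between 0.0745 and 0.0958. TSPAN3 (ENSG00000140391, chromosome 15) read 1286, 1290 and 1235 in shControl and 1086, 1151 and 1061 in shZDHHC20. The groups did not overlap, and TSPAN3 kept 86.6% of the control level (log2 fold change -0.21, SE 0.060, limma adjusted p = 0.0396). As with CD9 and CD81 the call was lost without any one library other than shZDHHC20 replicate 2 (adjusted p 0.101 to 0.158, limma), and with libraries scaled to the same sum (0.109).

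The other 6 tested genes of this group did not pass. TSPAN13, well expressed, read 2374, 2577 and 2590 in shControl and 2781, 2368 and 2758 in shZDHHC20. Replicate 2 was the lowest of the 6 libraries, while replicates 1 and 3 were the highest. The log2 fold change of TSPAN13 was 0.07 (adjusted p = 0.606), and 0.14 without replicate 2 (adjusted p = 0.0308, both limma). TSPAN31 read 306, 311 and 308 in shControl and 334, 400 and 330 in shZDHHC20, with no overlap and replicate 2 the highest. Its log2 fold change was 0.19 (adjusted p = 0.24), and 0.11 without replicate 2 (adjusted p = 0.447, both limma), and it shares exon positions with CDK4, AGAP2 and MIR6759 on the other strand. TSPAN8, a tetraspanin of gastrointestinal carcinomas, lay at 36.4 to 41.0 in shControl and 38.5 to 59.4 in shZDHHC20 (adjusted p = 0.386, limma). TSPAN18, the next gene to CD82 on chromosome 11, overlapped between groups, with a log2 fold change of -0.06 (95% interval -0.45 to 0.34). TSPAN11 and TSPAN12 were under 17 normalized counts in every library, with no overlap between groups. Their log2 fold changes were -1.18 and -0.68 (adjusted p = 0.168 and 0.422, limma). Without shZDHHC20 replicate 2 these log2 fold changes were -0.88 and -0.45 (adjusted p = 0.269 and 0.595, limma). TSPAN7, a tetraspanin of neurons, was at or under 1.01 in shControl and at 0 in every silenced library.

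Replicate 2 of shZDHHC20 was the highest of the silenced libraries for 13 of the 20 members with a mean of at least 100, the lowest for 5 and in between for 2. The log2 values of these 20 members differed between shZDHHC20 replicates 1 and 3 with an SD of 0.106, and between replicate 2 and each of them with 0.218 and 0.244. The labels name no batch for this library, and what sets it apart was not tested.

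Genes that work with the members were counted from lists made with earlier results of these data known. Of 27 tested genes for known partners of tetraspanins at the membrane, 14 passed in limma, 4 higher and 10 lower. The called share was 11.5% over all genes and 21.7% over those with a mean of at least 100, where most of this list lay. Without shZDHHC20 replicate 2, 17 passed, beside 20.0% of all genes. The smallest adjusted p-values were those of EPCAM, the epithelial adhesion protein, with a log2 fold change of 2.89 (adjusted p = 6.7e-07), of the Wnt co-receptor gene LRP5, with -0.55 (adjusted p = 7.57e-06), and of the growth factor receptor gene EGFR, with -0.55 (adjusted p = 9.03e-06). Among the integrins, picked out after their values were seen, the partner of CD151 ITGA3 read 15479, 15290 and 15714 in shControl and 13504, 14064 and 13634 in shZDHHC20 (log2 fold change -0.17, limma adjusted p = 0.0128). Its chain partner ITGB1 read 27059, 27104 and 27342 in shControl and 32115, 28868 and 33306 in shZDHHC20 (log2 fold change 0.21, limma adjusted p = 0.0171). Without shZDHHC20 replicate 2 the log2 fold change of ITGB1 was 0.27 (adjusted p = 2.91e-07, limma). ITGA6 and ITGA7, also laminin-binding alpha chains, did not pass (log2 fold changes -0.06 and 0.18, adjusted p = 0.591 and 0.775, limma). The beta chain ITGB4 did not pass either (log2 fold change -0.08, adjusted p = 0.468, limma). The alpha chains ITGA2 and ITGA5 were lower, with log2 fold changes of -0.30 and -0.28 (adjusted p = 0.00233 and 0.00255, limma). Among the alternatives the adjusted p reached 0.192 for ITGA3, 0.241 for ITGB1, 0.101 for ITGA2 and 0.11 for ITGA5.

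Of 30 tested genes around ADAM10, namely related proteases, inhibitors, substrates and gamma-secretase subunits, 6 passed in limma, 1 higher and 5 lower, beside 11.5% of all genes. Most of this list, and all 6 calls, had a mean of at least 100, a level at which 21.7% of all genes were called. Without shZDHHC20 replicate 2, 12 passed, beside 20.0% of all genes. The smallest adjusted p-values were those of 3 substrate genes, CDH1 (E-cadherin) with a log2 fold change of 1.13 (adjusted p = 6.62e-06), AXL with -0.44 (0.000163) and NOTCH2 with -0.44 (0.000178). Of 29 tested genes for extracellular vesicles and the sorting of CD63, 3 passed in limma, a share no higher than the 11.5% of all genes. It was also under the 21.7% of all genes with a mean of at least 100, where most of this list lay. Without shZDHHC20 replicate 2, 9 passed, beside 20.0% of all genes. The 3 were the small GTPase gene RAB31 with a log2 fold change of -0.46 (adjusted p = 9.81e-05), RAB11A with 0.21 (0.0264) and the adaptor gene AP3M1 with 0.22 (0.0487). Leaving out any one of 4 libraries for RAB11A, and any but shZDHHC20 replicate 2 for AP3M1, ended the call. The median log2 fold changes of the 3 lists were -0.07, -0.06 and 0.06, beside 0.01 over all genes. Among 3 tested relatives of the tetraspanins outside the members, limma called 0 after adjustment and 1, TSPAN10, at an unadjusted p under 0.05. That share was not counted over all genes.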

How the data were processed

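RNA-seq libraries of PANC-1 cells were prepared from total RNA with a directional Illumina kit, 3 with a control shRNA and 3 with an shRNA against ZDHHC20, and groups were taken from the sample titles. The authors deposited 1 table with a never negative signal per gene and library. Its name speaks of FPKM, but within each library 100% of values were whole multiples of the smallest one, with a tolerance of 0.1 of a step, so they were taken as read counts over 1 factor per library. Its columns, named NC and siZDHHC20, were matched to the titles by group and replicate number. The submitters' processing notes name the build hg19; aligner, counting tool, annotation and strand setting are not given in the sources used here. The read depth is known only through these steps, and no counting intervals are given.

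Members and lists were chosen with earlier results of these data known. Names came from the reference table (27175 of 27394 identifiers) and, for 219, from GENCODE 29 on GRCh38, which also gave exon lengths and overlaps; promoters came from RefSeq GRCh38.p14. Values were analysed as log2(value + 0.1), a scale that compresses changes of low genes and enlarges them where some libraries are at 0, for genes with a mean of at least 1. Groups were compared with lmFit and eBayes with trend of limma 3.58.1 (R 4.3.3), two-sided, with Benjamini-Hochberg adjustment over 22189 genes. Tables and plots used Python 3.11.15, pandas 2.3.3 and matplotlib 3.10.9, and the fit was tested on simulated data. Full values are given for members with an adjusted p under 0.05 and for the highest member of each role group without one, and for related lists the 3 smallest adjusted p-values. The alternatives were a pseudocount of 1, no filter or a filter at a mean of 10, scaling by median ratios, a fit without the mean-variance trend, a replicate block, and sets that left out 1 library. Scaling to equal sums and quantile normalization were added after seeing the data.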

Additional observations from a re-analysis of the deposited data

How the results depend on the processing

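The 10 called members kept their direction under every alternative run, and TM4SF1 kept its call in all of them. TSPAN9, CD82, TSPAN4 and TSPAN5 lost theirs only in the model without a mean-variance trend. The count of called members was 1 without the trend and 5 to 16 over the sets that left out 1 library: 5, 6 and 6 without shControl replicates 1, 2 and 3, and 5, 16 and 7 without shZDHHC20 replicates 1, 2 and 3. With a replicate block it was 7 (2 higher, 5 lower), as with equal library sums and with quantile normalization, both chosen after seeing the data. In each of these 3 fits CD9, CD81 and TSPAN3 were lost. Deviations of same-numbered libraries from their group means correlated at -0.192, -0.271 and -0.0784, and none of the 6 libraries correlated best with its own number, so the replicate numbers were not read as pairing.

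Over all genes, 2541 calls (1024 higher, 1517 lower) became 351 without the trend, 1233 to 4454 with 1 library left out and 1942 with the replicate block. With equal library sums they were 2639, of which 1502 were higher and 1137 lower. The 14 calls among membrane partners became 3 without the trend and 7 to 17 with 1 library left out. The 6 calls among genes around ADAM10 became 1 and 5 to 12. The 3 calls among vesicle genes became 5 with a mean of at least 10, 1 with the block, 7 (6 higher, 1 lower) with equal sums, 5 with quantile normalization and 1 to 9 with 1 library left out. Without the trend limma called 0 of them, with 4 at an unadjusted p under 0.05, a share not counted over all genes. With equal sums, 9 genes around ADAM10 were called, 4 higher and 5 lower. ZDHHC20 stayed between -1.27 and -1.17 on the log2 scale throughout. The cause of these shifts was not tested.

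Only uncalled members turned sign. With 1 library left out, log2 fold changes ran from -0.0133 to 0.103 for TSPAN17, -0.0839 to 0.0123 for ADAM10, -0.209 to 0.0815 for CD37, -0.191 to 0.0277 for CD151, -0.479 to 0.563 for TM4SF19 and -0.153 to 0.0457 for TSPAN18. CD151 was at 0.0179 under quantile normalization. Median-ratio scaling left all 31 members as they were, since the deposited values already had equal median ratios. The planned count tests were not run, because the steps of the shControl libraries lay too close to 1 for the check used here to accept the values as recovered read counts.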
